A study of Mus musculus with 9 samples.

Results

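Gene expression was compared between blastocysts of the dICSI-AOA group and blastocysts of the ICSI-AOA group, in 3 libraries each. Both groups were made by intracytoplasmic sperm injection (ICSI), in which a single sperm is injected into an oocyte, and both were then exposed to the calcium ionophore ionomycin for artificial oocyte activation (AOA). The groups differed in the sperm. ICSI-AOA embryos received normal sperm, whereas dICSI-AOA embryos received sperm heads that had been broken off the tails by pipetting and kept warm before injection, which lowers their ability to activate the oocyte. The comparison therefore addresses what the sperm preparation changed under the same ionomycin treatment. Of the 22564 genes in the table, the 4304 with a mean FPKM, fragments scaled by transcript length and library depth, of at least 1 over all libraries were tested. The other 3 of the 9 libraries were from the ICSI group, with normal sperm and no ionomycin, and they are given as a reference. All embryos were C57BL/6 blastocysts at day 3.5 after fertilization. Each library was made from a pool of blastocysts, and the study describes the 3 of a group as independent replicates. Embryos from activation-deficient sperm without ionomycin were not analysed here, so the sperm preparation was not compared in the absence of the ionophore.

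At fertilization the sperm delivers a phospholipase C, PLCζ, that cleaves a membrane lipid in the oocyte and releases inositol trisphosphate. Inositol trisphosphate opens calcium channels of the endoplasmic reticulum, and the repeated calcium rises that follow let the oocyte finish meiosis, release its cortical granules and start development. Ionomycin carries calcium across membranes and replaces this signal with an artificial rise, which is why it is used when sperm fail to activate the oocyte. By the blastocyst stage the embryo lives on its own transcripts and consists of an outer trophectoderm, an epiblast and a primitive endoderm.

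The libraries of both groups were of similar depth. The ICSI-AOA libraries held 150387 to 154606 fragments and the dICSI-AOA libraries 151833 to 163248, and each library had 1922 to 2033 genes with 10 or more fragments. At this depth the median standard error of a log2 fold change was 0.51, so that small changes of most genes were not detectable. Mitochondrially encoded genes took 8.14% ± 0.815 of the fragments in ICSI-AOA and 6.98% ± 0.423 in dICSI-AOA (SD, n = 3 libraries). The groups did not overlap (two-sided exact permutation p = 0.1, the smallest that 3 against 3 can give). The gap was narrow, from 7.29% in ICSI-AOA replicate 4 to 7.27% in dICSI-AOA replicate 1. The ICSI libraries, at 6.18% to 9.61%, spanned both groups. Defining markers of the blastocyst were scarce. All 5 epiblast markers (Pou5f1, Nanog, Sox2, Zfp42 and Fgf4) were at 0 in all libraries, as were Gata3, Eomes and Tfap2c of the 7 trophectoderm markers. The summed trophectoderm markers had 10, 7 and 6 fragments in the ICSI-AOA libraries and 14, 11 and 16 in the dICSI-AOA libraries, without overlap. The ICSI libraries had 17, 35 and 21, above all AOA libraries. Elf5 alone held 11 of these fragments in ICSI-AOA and 22 in dICSI-AOA. Summed primitive endoderm markers had 2, 7 and 3 against 4, 4 and 6 fragments. Oocyte markers reached 1 fragment and cumulus cell markers 2 fragments in any of the 6 libraries, and the sperm markers Prm1, Prm2, Tnp1 and Akap4 were at 0. In pooled embryos, fewer cells of a type and less RNA per cell cannot be told apart as sources of a difference between groups. The markers at 0 in all libraries are not such a difference. Each library detected 6738 to 6982 genes, and why these markers were absent was not tested. The libraries may not represent the blastocyst transcriptome in full, which limits all comparisons here.

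Few genes differed clearly between the sperm preparations. The study called a gene where it changed by more than 1.3-fold with an unadjusted p under 0.05, and by these thresholds 284 genes (6.6% of those tested) passed in the edgeR quasi-likelihood test. Of these, 156 (3.62%) were higher and 128 (2.97%) were lower in dICSI-AOA. The higher genes were 54.9% of the calls, 71.4% when the libraries were scaled by the authors' factors and 49.8% when they were scaled by total fragments without mitochondrial genes. After Benjamini-Hochberg adjustment over all 4304 genes, 6 genes (0.139%) passed 0.05 in edgeR. They were Alpk3, Acot11, Pde5a and Gm5148, which were higher in dICSI-AOA, and Ctu2 and Syt12, which were lower. The median log2 fold change of all tested genes was −0.02. The libraries of the groups did not overlap for 518 genes (12%), and 190 of the called genes were among them. The share of called genes rose with depth, from 4.64% of the 1100 genes with fewer than 20 fragments over the 6 libraries to 10.4% of the 878 genes with 180 or more, while the median standard error fell from 1.12 to 0.23. Among the called genes, 26 had no fragment in 1 of the groups.

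**Figure D1:**
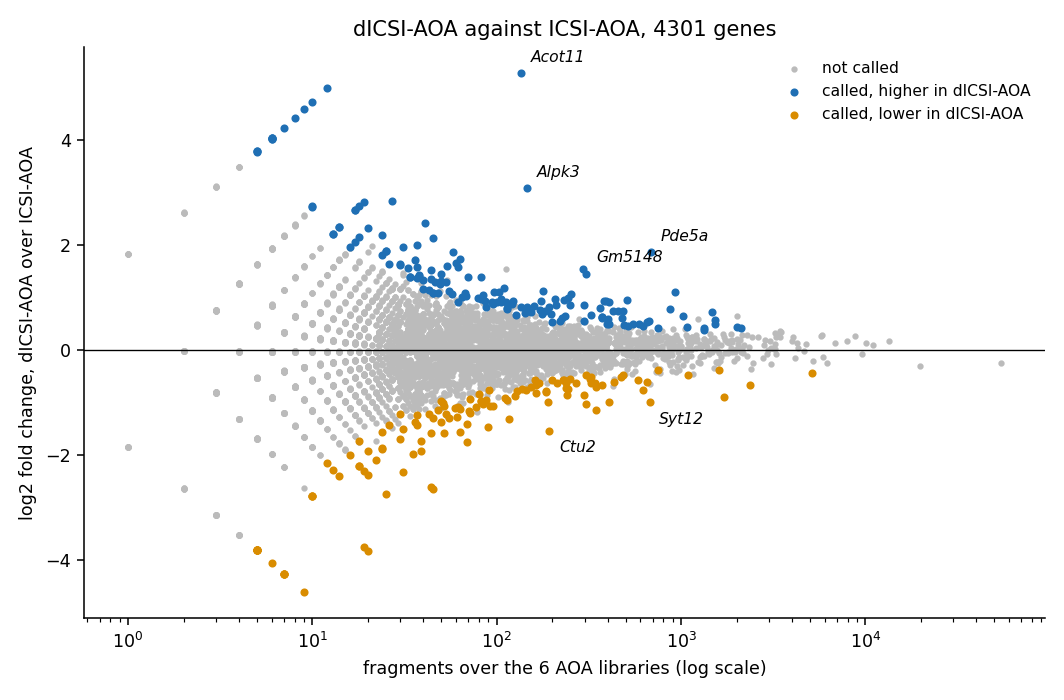
Log2 fold change of dICSI-AOA over ICSI-AOA (vertical axis) against the fragments of each gene over the 6 libraries (horizontal axis, log scale). Points are the 4301 tested genes with a fragment in these libraries, coloured where called. Acot11 and Alpk3 lie above the other genes of their depth, and the called genes with 180 or more fragments have a median absolute log2 fold change of 0.63.

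The number past the adjusted threshold rested on single libraries. Leaving out ICSI-AOA replicate 4 left 0 genes in edgeR, although 232 then had an unadjusted p under 0.05. Leaving out dICSI-AOA replicate 5 left 1 gene, dICSI-AOA replicate 4 left 2 and ICSI-AOA replicate 5 left 3. More genes passed when ICSI replicate 5 (10 genes) or dICSI-AOA replicate 1 (12 genes) was left out. With limma on log2(FPKM + 1), 251 genes had an unadjusted p under 0.05, and with limma on log2(FPKM + 0.1) 217 had, and none passed the adjusted threshold in either. DESeq2 gave 4 genes past it.

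**Figure D2:**
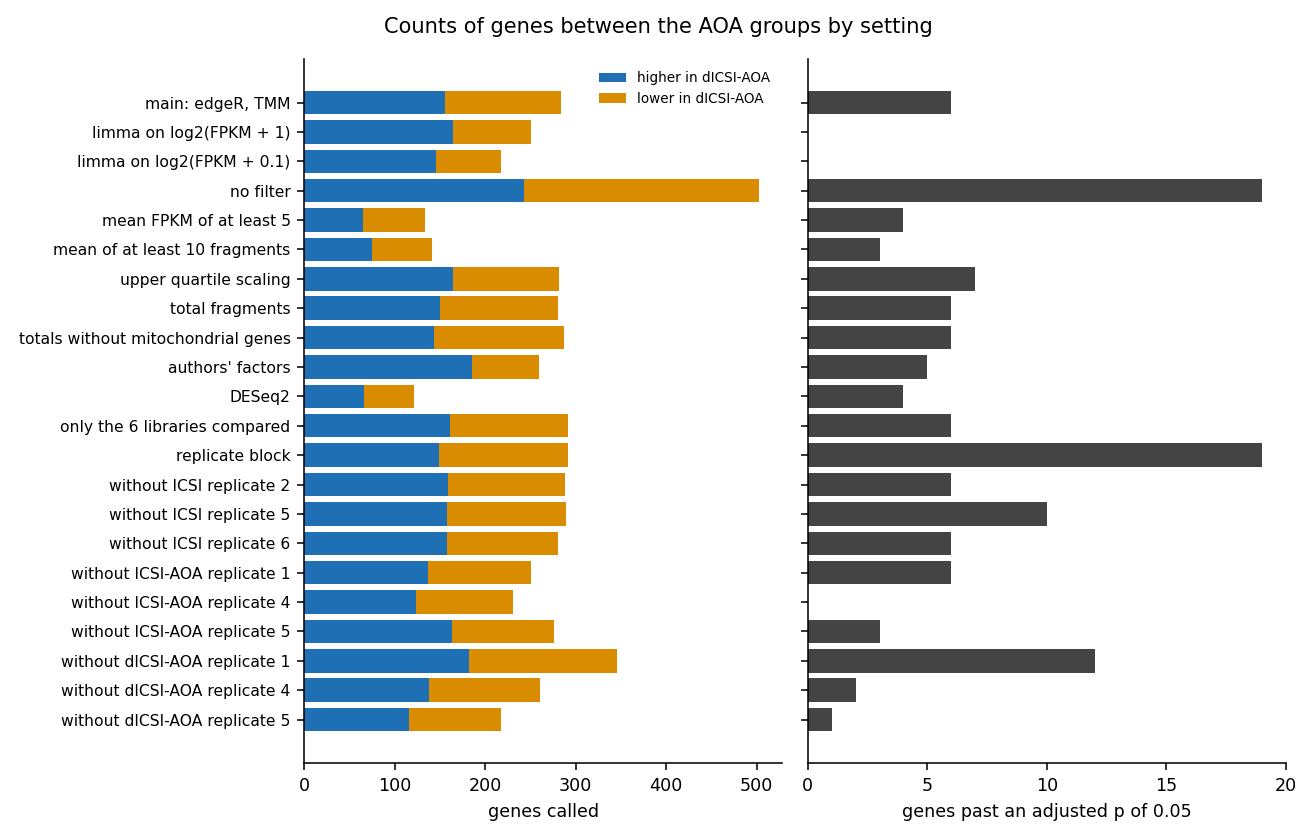
Genes called (left, bars split into higher and lower in dICSI-AOA) and genes past an adjusted p of 0.05 (right) under the fit as reported, in the top bar, and 21 alternatives. The called genes range from 121 to 503, and the genes past the adjusted threshold from 0 to 19.

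Alpk3 was low in the embryos from normal sperm with ionomycin. It encodes an alpha-kinase known from heart and skeletal muscle and lies at chr7:81057600-81105612 on the plus strand (mm10, GENCODE vM21 annotation). The ICSI-AOA libraries had 5, 3 and 7 fragments and the dICSI-AOA libraries 27, 78 and 26. All dICSI-AOA libraries were above all ICSI-AOA libraries, and replicate 4 was the highest. By edgeR the log2 fold change was 3.08 (SE 0.46) with an adjusted p of 0.00194, and it was 2.30 without dICSI-AOA replicate 4. In ICSI there were 26, 24 and 29 fragments. Against these shared libraries ICSI-AOA had a log2 fold change of −2.48 (SE 0.49) and dICSI-AOA one of 0.60 (SE 0.36), the former past the thresholds and the latter not. The deposited FPKM gave another picture. It was 9.41, 0.35 and 11.3 in the ICSI-AOA libraries and 11.9, 33.4 and 6.82 in the dICSI-AOA libraries, which overlapped, and limma on log2(FPKM + 1) did not call the gene. Of the related genes, Alpk1 was at 0 in all libraries and Alpk2 had 1 fragment, in ICSI-AOA replicate 1.

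The region before the start of Alpk3 is shown because it is the gene with the smallest p of the comparison. The 250 bases at chr7:81057350-81057599 on the plus strand (RefSeq, GRCm38.p6) end at the base before the start. Capitals mark the TATAAA motif, whose first base lies 34 bases before the start.
Alpk3: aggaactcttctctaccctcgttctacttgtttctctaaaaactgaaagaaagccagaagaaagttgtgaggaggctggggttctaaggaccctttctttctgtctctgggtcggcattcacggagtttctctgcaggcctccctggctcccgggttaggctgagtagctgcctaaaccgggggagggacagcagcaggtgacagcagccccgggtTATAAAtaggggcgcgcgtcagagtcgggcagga
The stretch had a GC content of 55.2% and 10 CpG sites, against medians of 52.4% and 6 over 32851 mouse promoter stretches of the same length. TATAAA was found on either strand in 12.4% of those stretches. Of the other motifs searched on both strands, the GC box GGGCGG is found in 32.7% of all stretches, the cyclic AMP response element TGACGTCA in 1.55%, the E-box CACGTG in 6.02% and the CCAAT box in 33.8%, and none of them was in this window. The letters are a description of the sequence and not a site of binding.

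Acot11 had the largest fold change of the genes past the adjusted threshold. It encodes an acyl-CoA thioesterase, which releases free fatty acids from coenzyme A, at chr4:106744555-106804998 on the minus strand. Each ICSI-AOA library had 1 fragment, and the dICSI-AOA libraries had 3, 79 and 50. The groups did not overlap, but dICSI-AOA replicate 1 was close to the ICSI-AOA libraries while replicates 4 and 5 stood far above. By edgeR the log2 fold change was 5.27 (SE 0.85) with an adjusted p of 0.00311 and 4.48 without dICSI-AOA replicate 4. Over the group totals of 132 and 3 fragments the scaled ratio was 42.9, with an exact 95% interval of 14.4 to 211 that covers counting error only. The ICSI libraries had 3, 7 and 13 fragments, above ICSI-AOA and below the higher dICSI-AOA libraries. Relative to these shared libraries ICSI-AOA had a log2 fold change of −2.89 (SE 1.10) and dICSI-AOA one of 2.38 (SE 0.61). Mean FPKM was 1.56 in ICSI, 0.28 in ICSI-AOA and 13.6 in dICSI-AOA, so the gene passed the expression filter mainly through dICSI-AOA. Exons of Acot11 overlap those of Fam151a on the opposite strand over 1263 bases, and strand use in the counting is not given in the sources used here. Fam151a had 261, 233 and 245 fragments in ICSI-AOA against 270, 206 and 262 in dICSI-AOA, with overlap. Whether reads of Fam151a entered the counts of Acot11 was not tested.

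RefSeq lists more than 1 start of Acot11, and the stretch before the outermost is shown because the gene had the largest change. The 250 bases at chr4:106805008-106805257 on the minus strand (RefSeq, GRCm38.p6) are written 5′ to 3′ along the gene. Capitals mark ATTGG, the reverse complement of the CCAAT motif, whose first base lies 152 bases before the start.
Acot11: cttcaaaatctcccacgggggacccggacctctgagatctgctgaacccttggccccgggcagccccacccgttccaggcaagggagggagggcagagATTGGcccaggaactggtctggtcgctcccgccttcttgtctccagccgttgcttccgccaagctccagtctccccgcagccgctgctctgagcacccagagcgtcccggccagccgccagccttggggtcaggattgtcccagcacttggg
Its GC content was 66.4% with 13 CpG sites. None of the other 4 motifs was in this window, TATAAA included. The stretch before the second start, at chr4:106799832-106800081, differed in this, with 3 GC boxes, 1 E-box and no CCAAT box. On either strand the CCAAT box was found in 33.8% of all stretches.

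Pde5a, the phosphodiesterase that degrades cyclic GMP and is the target of sildenafil, lies at chr3:122728947-122859374 on the plus strand and has no annotated exon partner on the opposite strand. The ICSI-AOA libraries had 37, 36 and 71 fragments and the dICSI-AOA libraries 85, 113 and 345. The groups did not overlap, and dICSI-AOA replicate 5 was far above the other libraries. By edgeR the log2 fold change was 1.86 (SE 0.35) with an adjusted p of 0.0163 and fell to 1.04 without that library. In ICSI, Pde5a had 68, 119 and 71 fragments. Relative to ICSI, ICSI-AOA had a log2 fold change of −0.93 (SE 0.36) and dICSI-AOA one of 0.93 (SE 0.33), so that the fitted level of ICSI lay in the middle. The cyclic GMP-dependent kinase genes Prkg1 and Prkg2 had at most 3 fragments in any library.

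Gm5148, a predicted gene to which the annotation gives no role, lies at chr3:37714190-37724490 on the minus strand. It had 37, 24 and 20 fragments in ICSI-AOA against 46, 106 and 73 in dICSI-AOA. The groups did not overlap, although dICSI-AOA replicate 1 was near ICSI-AOA replicate 1. By edgeR the log2 fold change was 1.45 (SE 0.30) with an adjusted p of 0.0303. With 31, 32 and 26 fragments the ICSI libraries resembled ICSI-AOA, and relative to them dICSI-AOA differed by 1.20 (SE 0.29) and ICSI-AOA by −0.25 (SE 0.32) on the log2 scale. Its exons overlap those of the pseudogene Rps23-ps1 on the opposite strand over 396 bases.

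Ctu2 had the smallest adjusted p of the genes that were lower with activation-deficient sperm. Its protein acts with Ctu1 to add sulfur to the wobble uridine of certain transfer RNAs. The gene lies at chr8:122476143-122484138 on the plus strand. The ICSI-AOA libraries had 39, 53 and 51 fragments and the dICSI-AOA libraries 19, 13 and 18. The libraries within each group were close, and the groups were apart by more than their spread. By edgeR the log2 fold change was −1.55 (SE 0.29) with an adjusted p of 0.0149, and it stayed called in all 21 alternatives, between −1.67 and −1.24. The ICSI libraries had 14, 16 and 23 fragments, close to dICSI-AOA. Relative to ICSI, ICSI-AOA had a log2 fold change of 1.32 (SE 0.28) and dICSI-AOA one of −0.23 (SE 0.32). Ctu2 overlaps Piezo1, a mechanically gated cation channel, on the opposite strand over 2441 bases. Piezo1 had 40, 31 and 32 fragments in ICSI-AOA against 54, 43 and 49 in dICSI-AOA, without overlap. Its log2 fold change of 0.46 (SE 0.26) was not called and had the opposite sign. Whether reads of this pair were assigned to the wrong gene was not tested. Ctu1 was at 0 in all libraries.

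Syt12 encodes a synaptotagmin, a family of vesicle proteins that includes calcium sensors of exocytosis, at chr19:4445908-4477447 on the minus strand. It had 118, 167 and 162 fragments in ICSI-AOA against 72, 81 and 75 in dICSI-AOA. All dICSI-AOA libraries were below all ICSI-AOA libraries. By edgeR the log2 fold change was −1.0 (SE 0.20) with an adjusted p of 0.0295, and it ranged from −1.14 to −0.84 over 21 alternatives, in all of which the gene was called. In ICSI, Syt12 had 70, 89 and 97 fragments. Relative to these, ICSI-AOA differed by 0.70 (SE 0.20) and dICSI-AOA by −0.31 (SE 0.21) on the log2 scale. The noncoding gene A930001C03Rik overlaps it on the opposite strand over 950 bases.

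**Figure D3:**
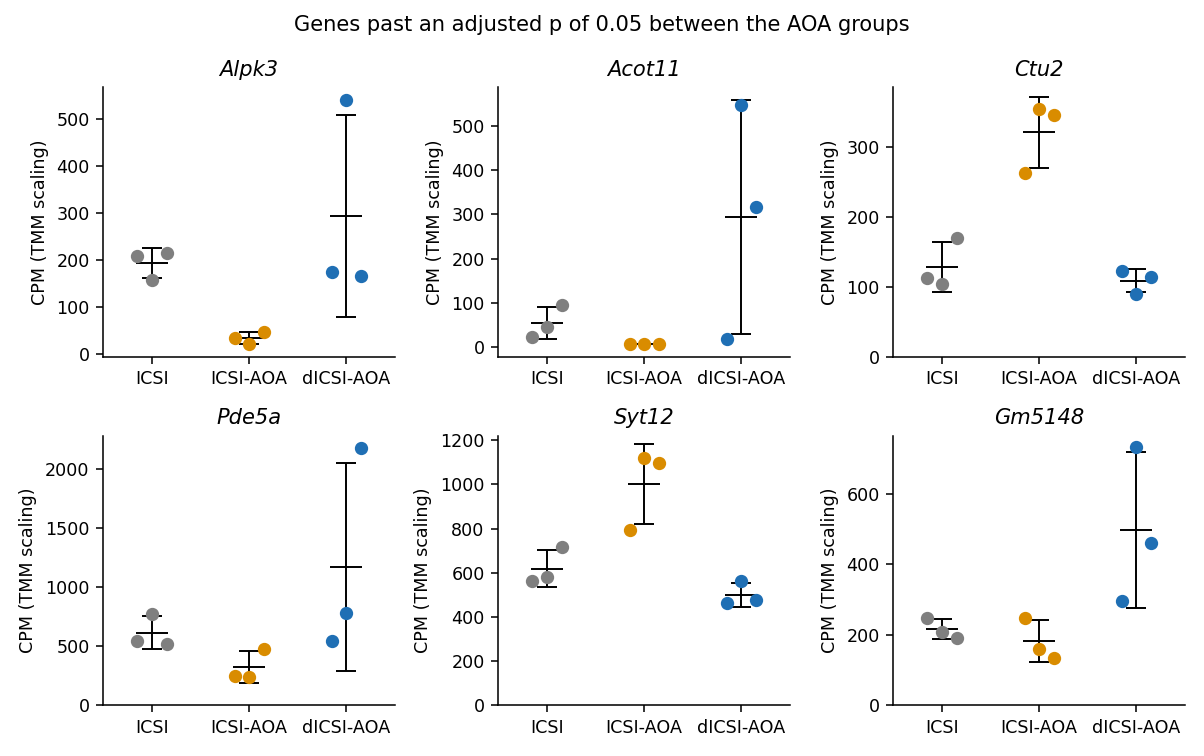
CPM, fragments per library scaled to a common size by TMM (vertical axes, a separate scale for each gene) for the 6 genes past an adjusted p of 0.05. Points are libraries, and black bars are the mean and SD of the 3 libraries of each group. Ctu2 and Syt12 have tight groups with ICSI-AOA highest, whereas dICSI-AOA is widely spread for Acot11, and 1 dICSI-AOA library each stands far above the others for Alpk3 (replicate 4) and Pde5a (replicate 5).

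Of the 284 called genes, 44 were called the same way under every alternative that tested them, 27 of them higher and 17 lower in dICSI-AOA. Of these 44, 10 had at least 200 fragments over the 6 libraries and no exon partner found on the opposite strand, although AC163993.1 is not in the annotation used and could not be checked for one. This group, chosen after the values were seen, held Pde5a and 9 further genes. The libraries of dICSI-AOA and ICSI-AOA did not overlap for 8 of the 10, against 518 (12%) of all tested genes. A call that holds when each library is left out favours genes without overlap, so the 8 are no separate result. Gsg2, also called haspin, a kinase that phosphorylates histone H3 in mitosis, had 90, 60 and 85 fragments in ICSI-AOA against 52, 19 and 38 in dICSI-AOA. All dICSI-AOA libraries were lower, with a log2 fold change of −1.15 (SE 0.26) and an edgeR adjusted p of 0.0775. The ICSI libraries had 96, 91 and 112 fragments. Relative to them ICSI-AOA differed by −0.46 (SE 0.24) and dICSI-AOA by −1.62 (SE 0.26) on the log2 scale. Vps26b, a subunit of the retromer that returns membrane proteins from endosomes, had 72, 77 and 55 fragments in ICSI-AOA against 32, 22 and 48 in dICSI-AOA. The groups did not overlap, and the log2 fold change was −1.04 (SE 0.27). The ICSI libraries had 27, 18 and 20 fragments. Relative to ICSI, ICSI-AOA had a log2 fold change of 1.52 (SE 0.28) and dICSI-AOA one of 0.48 (SE 0.30).

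The other genes of this group were higher in dICSI-AOA, apart from Fam196a. Nsd1, a methyltransferase for lysine 36 of histone H3, had 43, 62 and 53 fragments in ICSI-AOA, 100, 77 and 94 in dICSI-AOA and 50, 62 and 55 in ICSI. Every dICSI-AOA library was above those of both other groups, and the log2 fold change was 0.74 (SE 0.21). Inpp5f, a phosphoinositide phosphatase with paternally expressed transcripts, had 88, 85 and 89 fragments in ICSI-AOA, 124, 124 and 141 in dICSI-AOA and 89, 95 and 94 in ICSI. Its libraries were even within each group, ICSI lay near ICSI-AOA, and the log2 fold change was 0.53 (SE 0.19). AC163993.1, to which no role is assigned here, had 113, 102 and 99 fragments against 148, 187 and 220, a log2 fold change of 0.78 (SE 0.19), and 77, 101 and 96 in ICSI. The transcription factor gene Cux2 had 37, 38 and 28 fragments against 67, 46 and 80, and 43, 58 and 49 in ICSI. Cux2 differed by 0.86 on the log2 scale (SE 0.24) between the AOA groups, and its ICSI libraries were all above ICSI-AOA and overlapped dICSI-AOA. Glyr1, whose protein binds nucleosomes, had 28, 32 and 21 fragments against 32, 76 and 65, a log2 fold change of 1.06 (SE 0.30). Its lowest dICSI-AOA library met the highest ICSI-AOA library. Rabepk differed by 0.96 (SE 0.31) and Fam196a by −0.86 (SE 0.26) on the log2 scale.

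The largest fold changes came from genes with few fragments. Among them, Ube2k, Tada1, Nrxn2 and Ttc38 reached a mean FPKM of 1 only in the group where they were higher. They passed the expression filter through that group, so their place here is partly set by the filter. Of the called genes, 158 had groups that did not overlap and at least 20 fragments over the 6 libraries, and the 10 largest rises and falls were taken from these. Beside Acot11 and Alpk3, the rises were Prss53, Cmtm3, Prss27, Ube2k, Nsfl1c, Tada1, Cep72 and Arid4b, with log2 fold changes of 1.87 to 2.43. Arid4b, a subunit of the Sin3 histone deacetylase complex, had 6, 5 and 1 fragments in ICSI-AOA against 16, 14 and 16 in dICSI-AOA, and 10, 6 and 10 in ICSI. Its log2 fold change was 1.87 (SE 0.51), the smallest error of these 8 genes. It overlaps Ggps1 on the opposite strand, which had at most 2 fragments in any of the 6 libraries. Prss53 and Prss27 encode serine proteases. Prss53 had 0, 6 and 0 fragments against 14, 6 and 15, with ICSI-AOA replicate 4 level with dICSI-AOA replicate 4 in fragments, and its log2 fold change of 2.43 (SE 0.72) rested in ICSI-AOA on replicate 4. Without that library ICSI-AOA was at 0. Prss53 was then 7.56-fold higher in dICSI-AOA against a floor of 3 fragments per group, a ratio that leaves counting error out. Prss27 had 1, 3 and 0 fragments against 6, 8 and 6, with a log2 fold change of 2.19 (SE 0.78) that was 3.40 without ICSI-AOA replicate 4. Ube2k, a ubiquitin-conjugating enzyme, had 1, 3 and 3 fragments against 16, 9 and 5. Nsfl1c, a cofactor of the segregase VCP that acts on ubiquitinated proteins, had 2, 2 and 2 against 13, 9 and 3. Ube2k and Nsfl1c differed by 2.01 (SE 0.68) and 1.96 (SE 0.69) on the log2 scale, and both lost their call without dICSI-AOA replicate 1. Without ICSI-AOA replicate 4, Cep72 had a log2 fold change of 2.56 and Cmtm3 one of 3.16, and Cep72 lost its call in 6 of 19 alternatives.

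The 10 largest falls were Nrxn2, Ttc38, Nap1l1, Sfxn3, Srek1, Gm11744, Pigq, Med7, Otub2 and 3010026O09Rik, with log2 fold changes of −2.75 to −1.73. Ttc38, which encodes a tetratricopeptide repeat protein, had 12, 14 and 12 fragments in ICSI-AOA, 3, 2 and 1 in dICSI-AOA and 6, 5 and 3 in ICSI. It was even within each group, with a log2 fold change of −2.62 (SE 0.58) and an edgeR adjusted p of 0.0603, and it was called under all 19 alternatives that tested it. Nrxn2, a neurexin known from synapses, had 9, 4 and 9 fragments against 1, 2 and 0. Over the group totals its scaled ratio was 7.52, with an exact 95% counting interval of 2.26 to 39.3, and its log2 fold change was −2.75 (SE 0.91) and −3.63 without dICSI-AOA replicate 4. Nap1l1, a histone chaperone, had 15, 3 and 8 fragments against 2, 0 and 3. Its groups met at 3 fragments, and the call was lost without ICSI-AOA replicate 1, at a log2 fold change of −1.69. Sfxn3, a mitochondrial serine carrier, had 8, 6 and 4 fragments against 1, 2 and 1. Srek1, a splicing regulator, had 10, 8 and 10 against 0, 3 and 4. Sfxn3 and Srek1 differed by −2.10 (SE 0.77) and −1.98 (SE 0.67) on the log2 scale. Pigq, which acts in the synthesis of membrane anchors, had 10, 15 and 6 fragments in ICSI-AOA against 0, 4 and 4 in dICSI-AOA, while the ICSI libraries had 0, 0 and 1. The Mediator subunit Med7 differed by −1.88 (SE 0.72) and the deubiquitinase Otub2 by −1.75 (SE 0.82) on the log2 scale, and Otub2 lost its call in 8 of 20 alternatives. Gm11744 lost its call in 5 of 19 and had a log2 fold change of −3.14 without dICSI-AOA replicate 1.

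**Figure D4:**
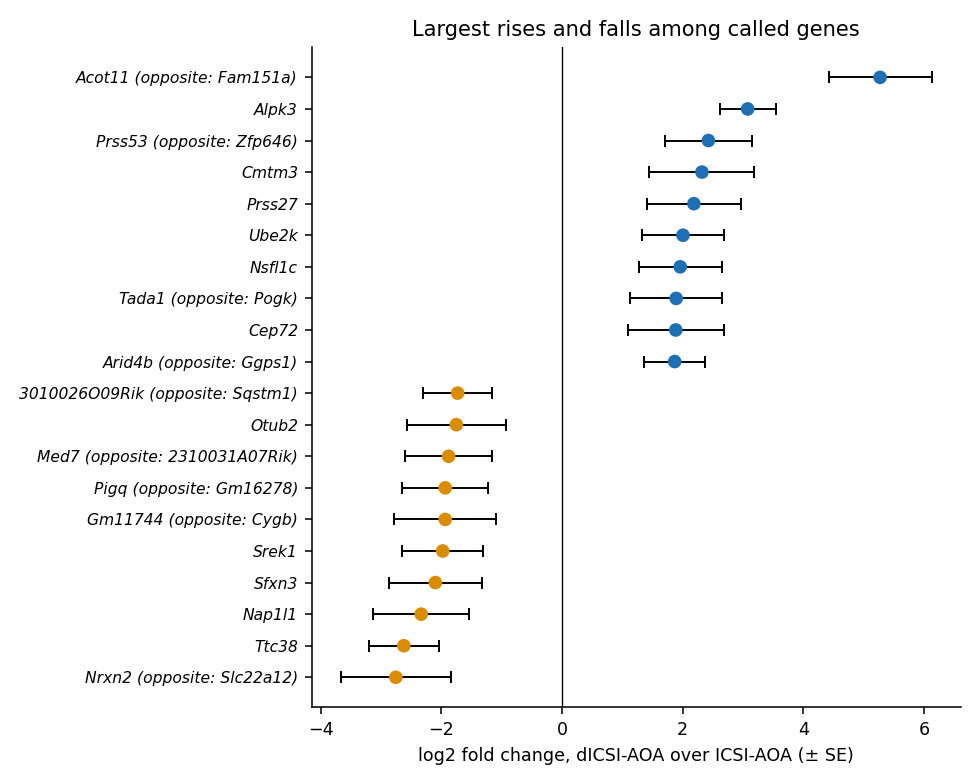
Log2 fold change of dICSI-AOA over ICSI-AOA with its standard error (horizontal axis) for the 20 called genes with the largest changes whose groups did not overlap. Names in brackets are genes with exons on the opposite strand. The error bars of most genes are wider than the steps between neighbouring genes, so the order is not resolved.

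Genes that carry the activation signal itself were measured through a list of 81 genes of oocyte activation and calcium signalling. Of these, 26 passed the expression filter, and none was called, with a median log2 fold change of −0.15, where 6.6% of all tested genes were called, 3.62% higher and 2.97% lower. The smallest p belonged to Plcb3, a phospholipase C of receptor signalling, at −1.14 (SE 0.58), which passed the thresholds only without dICSI-AOA replicate 4, at −1.58. Camk4, a calcium and calmodulin-dependent kinase and the member with the most fragments, had 358, 330 and 355 fragments in ICSI-AOA against 289, 351 and 316 in dICSI-AOA, which overlapped. Plcz1, the sperm phospholipase, was at 0 in all libraries, and Itpr1, an inositol trisphosphate receptor, had at most 3 fragments in any of the 6 libraries. Of 12 tested genes of cyclic nucleotide signalling Pde5a was the only one called (8.33%), and of 15 genes of exocytosis and vesicle docking Syt12 and Exoc3 were called (13.3%). Exoc3, a subunit of the exocyst, had 35, 81 and 70 fragments against 128, 52 and 112, a log2 fold change of 0.60 (SE 0.27) with overlapping groups, and the call was lost in 8 of 21 alternatives. Of 17 genes of transfer RNA wobble modification only Ctu2 was called (5.88%, against 6.6% of all genes). Of 11 genes of acyl-CoA thioesterases and fatty acid oxidation, Acot11 was called higher and Acadvl lower (18.2%), and the median of the list was −0.53. Acadvl, an acyl-CoA dehydrogenase, had 7, 9 and 3 fragments against 2, 2 and 3, and its call was lost in 14 of 20 alternatives.

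Chromatin regulators were called in both directions. Of 50 tested genes, 4 were higher and 2 were lower (12% called, against 6.6% of all genes), and the median of the list was −0.03. Beside Nsd1 and Arid4b, the higher genes were Ino80 and Ezh2, and the lower genes were Ezh1 and Nap1l1. Ino80, the ATPase of a nucleosome remodeller, had 13, 10 and 9 fragments against 20, 27 and 24, with 11, 18 and 16 in ICSI. The groups did not overlap, and its log2 fold change was 1.11 (SE 0.35). The catalytic subunits of Polycomb repressive complex 2 were called in opposite directions. Ezh2 had 8, 12 and 18 fragments against 22, 13 and 39, a log2 fold change of 0.91 (SE 0.39). Ezh1 had 5, 21 and 17 against 3, 7 and 8, a log2 fold change of −1.27 (SE 0.57). Both pairs of groups overlapped, Ezh2 lost its call in 6 of 21 alternatives and Ezh1 in 7 of 20, and Ezh2 overlaps Gm26625 on the opposite strand. None of the 44 remaining members was called, and among them Kdm1a, a histone demethylase, had 203, 178 and 178 fragments against 192, 149 and 235.

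Among the imprinted genes, of 9 tested on the paternally expressed list, Inpp5f was called higher and Nnat lower, and none of 10 maternally expressed genes was called (22.2% and 0%, against 6.6% of all genes), with medians of 0.00 and 0.14. The values are per gene, so the paternally expressed transcripts of Inpp5f were not measured apart. Nnat, a membrane protein of neurons and the pancreas, had 154, 212 and 259 fragments against 177, 137 and 147, with overlap. Its log2 fold change was −0.48 (SE 0.21), and the call was lost in 7 of 21 alternatives, with either limma test, with the authors' factors and when replicate 4 or 5 of either group was left out. Igf2r, the receptor that clears IGF2, which the study followed in detail, had 13, 8 and 7 fragments in ICSI-AOA against 16, 15 and 11 in dICSI-AOA. The groups overlapped, and the log2 fold change of 0.54 (SE 0.44) was not called in any alternative. In ICSI, Igf2r had 4, 14 and 10 fragments. The deposited FPKM of Igf2r did not follow its fragments. It was 22.1, 15.5 and 16.3 in the ICSI-AOA libraries and 71.3, 10.3 and 10.3 in the dICSI-AOA libraries, which overlapped, and limma on log2(FPKM + 1) gave a log2 fold change of 0.16 (SE 0.61). In the ICSI libraries the FPKM was 0.31, 1.17 and 0.89, below all 6 AOA libraries, although the fragments of the 3 groups overlapped. Airn was not analysed here.

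Genes of ribosome biogenesis included 4 called of 23 tested (17.4%, against 6.6% of all genes), 3 higher and 1 lower, with a list median of −0.03. Krr1, a factor of the small-subunit processome, had 101, 89 and 77 fragments in ICSI-AOA, 57, 37 and 43 in dICSI-AOA and 56, 46 and 46 in ICSI. All dICSI-AOA libraries were below all ICSI-AOA libraries and near ICSI, and the log2 fold change was −1.0 (SE 0.23) and an edgeR adjusted p of 0.0741. Its opposite-strand partner Glipr1 had 17, 19 and 17 fragments against 21, 9 and 21. Emg1, a methyltransferase of ribosomal RNA, had 46, 57 and 42 fragments against 71, 69 and 86, without overlap, and a log2 fold change of 0.60 (SE 0.22). It was called in all 21 alternatives and overlaps Lpcat3. The ribosomal RNA methyltransferase Dimt1 differed by 0.75 (SE 0.31) and lost its call in 4 of 21 alternatives. Tsr1, a maturation factor of the small subunit, had 47, 35 and 55 fragments against 190, 45 and 33, so that its call rested on dICSI-AOA replicate 1, and its log2 fold change of 0.92 (SE 0.39) became −0.24 without that library. Nop9, the member with the most fragments, had 1435, 1548 and 1753 against 1897, 1625 and 1779, which overlapped. Of 48 genes of cytosolic ribosomal proteins only Rpl10a was called (2.08%), at 1.06 (SE 0.46), and it lost its call in 5 of 21 alternatives. Of 22 genes of mitochondrial ribosomal proteins Mrps14 and Mrps31 were called higher (9.09%), at 0.97 (SE 0.43) and 1.42 (SE 0.67). Mrps14 lost its call in 6 of 20 alternatives and Mrps31 in 7 of 19, and Mrps31 had a log2 fold change of 2.13 without ICSI-AOA replicate 5.

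Of 39 cell cycle genes 3 were called (7.69%, against 6.6% of all genes). Beside Gsg2, Ccnd3, a cyclin of the G1 phase, was higher, with 3, 1 and 4 fragments against 9, 5 and 11 and a log2 fold change of 1.55 (SE 0.62). Orc4, of the origin recognition complex, had 1, 36 and 2 fragments against 2, 3 and 1. Its call rested on ICSI-AOA replicate 4 alone, and the log2 fold change of −2.65 (SE 1.0) became 0.36 without that library. Cdk4, the member with the most fragments, had 355, 297 and 332 fragments against 426, 265 and 297.

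Of 25 lysosomal genes 3 were called (12%, against 6.6% of all genes), all of them lower (2.97% of all genes), while the median of the list was 0.17. Ctsb, the protease cathepsin B, had 18, 23 and 25 fragments in ICSI-AOA against 4, 12 and 8 in dICSI-AOA. All dICSI-AOA libraries were lower, with a log2 fold change of −1.48 (SE 0.43) and a call in all 20 alternatives that tested it. The ICSI libraries had 9, 29 and 13 fragments and spanned both groups. Gnptg, of the enzyme that tags lysosomal proteins, had 33, 35 and 31 fragments against 19, 21 and 24, at −0.66 (SE 0.27), and Cln3, a lysosomal membrane protein, differed by −1.09 (SE 0.47). These 3 genes overlap Fdft1, Unkl and Apobr on the opposite strand, and Gnptg and Cln3 lost their calls in 6 of 21 and 8 of 19 alternatives.

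None of 33 tested genes of the DNA damage response and none of 17 p53 targets and apoptosis genes was called, against 6.6% of all genes, with medians of 0.10 and 0.26. Recql5, a helicase, had 377, 392 and 543 fragments against 412, 492 and 628. Gadd45a, a p53 target, differed by 0.43 (SE 0.42). Of 20 genes of oxidative stress and glutathione, Gsta3 and Gpx4 were called higher and Hmox2 lower (15%). Gsta3, a glutathione transferase, had 4, 2 and 2 fragments against 2, 24 and 11. It was as low in dICSI-AOA replicate 1 as in ICSI-AOA, and its log2 fold change of 2.14 (SE 0.71) was 1.17 without dICSI-AOA replicate 4, where it was no longer called. Gpx4, which reduces lipid peroxides, had no fragments in ICSI-AOA against 3, 0 and 4 in dICSI-AOA. It was 2.27-fold higher against a floor of 3 fragments per group, a ratio that leaves counting error out. The call of Gpx4 was lost in 4 of 19 alternatives. Hmox2, a haem oxygenase, differed by −0.39 (SE 0.18) and lost its call in 14 of 21 alternatives. Of 36 heat shock and unfolded protein response genes, Atf6b and Tcp1 were called lower (5.56%). Atf6b had 4, 2 and 1 fragments against 0 in dICSI-AOA, 2.39-fold lower against the same floor, and lost its call in 5 of 19 alternatives. Atf6b passed the expression filter through ICSI-AOA alone, with a mean FPKM of 3.46 there, 0.10 in ICSI and 0 in dICSI-AOA. Tcp1, a chaperonin subunit that overlaps Acat3, had 8, 3 and 6 against 0, 3 and 0 and lost its call in 5 of 20. Without dICSI-AOA replicate 4 that group was at 0, and Tcp1 was 3.98-fold lower against this floor. These ratios also leave counting error out. None of 13 interferon response genes was called.

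Of the 10 mitochondrially encoded genes tested, 2 were called and both were lower in dICSI-AOA (20%, against 6.6% of all genes called and 2.97% called lower). A log2 fold change below 0 was found for 7 of the 10 under TMM and for 7 or 8 under each other scaling run, and the median was −0.27 beside −0.02 for all genes. The share of fragments of these genes moved with them, and its part in these calls was not tested. That share was lower in all dICSI-AOA libraries, with the nearest at 7.27% against 7.29% in ICSI-AOA. mt-Nd5, the gene with the most fragments, had 9521, 8758 and 11112 fragments against 7815, 9138 and 8310, a log2 fold change of −0.25 (SE 0.14) that was not called. mt-Nd4, also a subunit of complex I, had 858, 950 and 1107 fragments against 829, 699 and 683. All dICSI-AOA libraries were below all ICSI-AOA libraries, with a log2 fold change of −0.44 (SE 0.19). mt-Co3, a cytochrome oxidase subunit, had 14, 12 and 14 against 8, 2 and 9, a log2 fold change of −1.10 (SE 0.46). Both calls depended on the processing, since mt-Nd4 lost its call in 6 of 21 alternatives and mt-Co3 in 5 of 20. Without ICSI-AOA replicate 5 or dICSI-AOA replicate 4 neither was called. With the authors' factors neither was called and the median was −0.17 beside 0.09 for all genes. The mt-Nd2 gene had 709, 566 and 816 fragments against 673, 572 and 953, with overlap. Of 32 nuclear genes of oxidative phosphorylation Cox4i1 was called, with 1, 1 and 3 fragments against none. Against a floor of 3 fragments per group it was 1.71-fold lower, a ratio that leaves counting error out. Cox4i1 lost its call in 6 of 19 alternatives. It passed the expression filter through ICSI-AOA alone, with a mean FPKM of 3.90 there, 0.95 in ICSI and 0 in dICSI-AOA. The share called was 3.12% and the list median was −0.14. None of 11 genes of glycolysis and none of 10 of cholesterol synthesis and uptake was called.

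Cell type lists were thinly measured. Of 9 tested trophectoderm genes Krt19, a keratin, was called lower, with 4, 5 and 5 fragments against 2, 2 and 0. It lost its call in 12 of 19 alternatives. The list median was 0.03, and the summed markers above were higher in dICSI-AOA than in ICSI-AOA but lower than in ICSI. None of 7 primitive endoderm genes, the 1 epiblast gene, the 2 cumulus cell genes and the 1 oocyte gene tested was called. None of 10 tested genes of sperm and male germ cells was called, with a median of 0.05. Fragments of Y chromosome genes were 13, 2 and 14 in ICSI-AOA against 12, 3 and 2 in dICSI-AOA, a difference that the two-sided exact permutation test did not separate (p = 0.5, n = 3 libraries, where 0.1 is the smallest possible). Over all 32 lists, 521 tested genes were in at least 1 list and 37 of these were called (7.1%, against 6.6% of all genes).

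**Figure D5:**
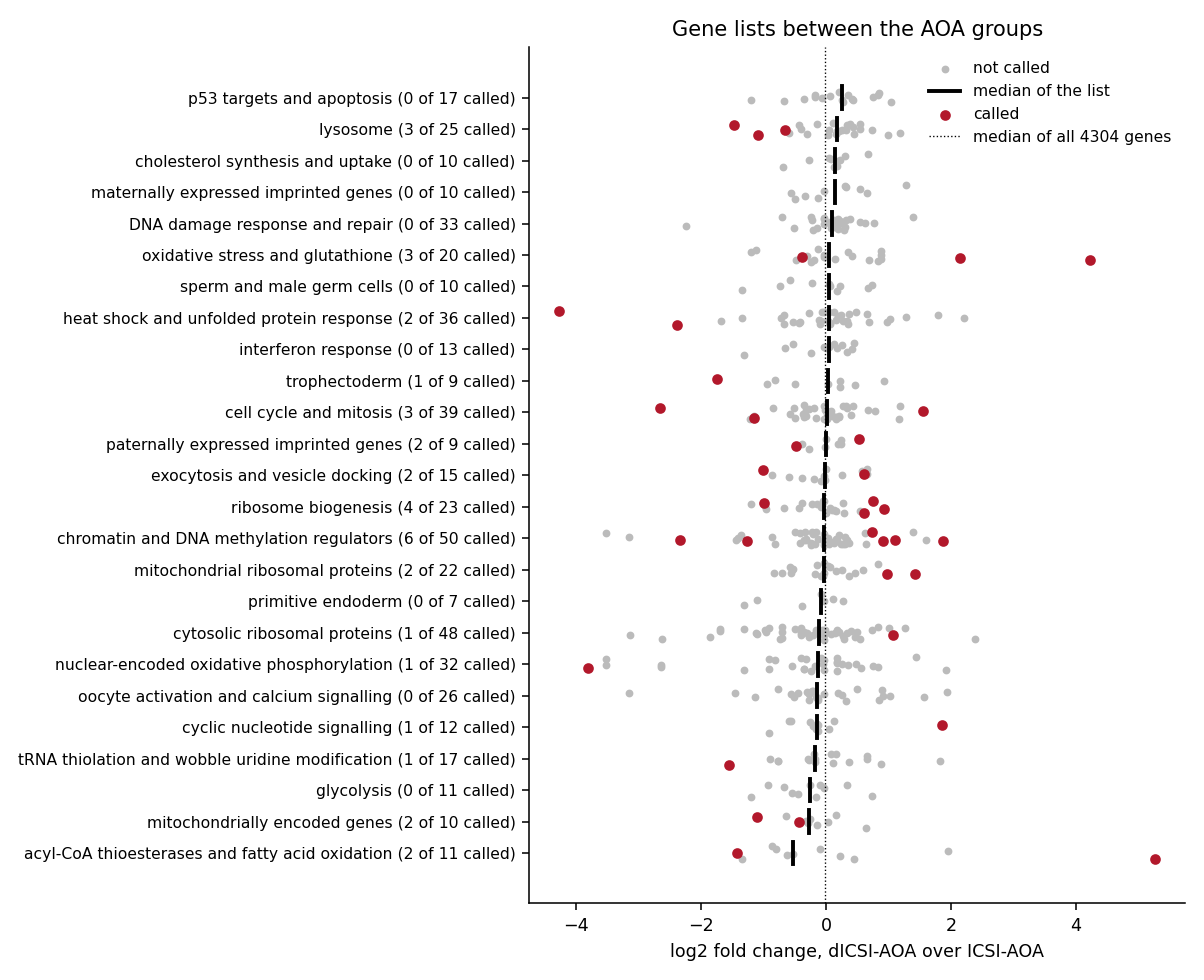
Log2 fold change of dICSI-AOA over ICSI-AOA (horizontal axis) for every tested member of the 25 lists with at least 5 tested genes. Points are genes, red where called, black bars are list medians and the dotted line is the median of all genes. The list medians lie between −0.53 and 0.26, and called genes of several lists, chromatin regulators and ribosome biogenesis among them, lie on both sides of 0.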

How the data were processed

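RNA of pooled blastocysts was sequenced in 9 libraries. Per the study, paired-end reads were trimmed with cutadapt 1.9.3 and aligned to mm10 with HISAT2, and the authors computed FPKM with Cuffdiff from an Ensembl annotation before deposition. Versions of HISAT2 and Cuffdiff are not given in the sources used here, nor is whether strand was used in counting. The kit is named differently in the labels and in the study, both stranded. The deposited estimated counts were taken to be estimated fragments times a factor for each library. They were divided by this factor and rounded to fragments, and at least 95.7% of values above 0 lay within 0.01 of a whole number. No column of per-sample values was left unmapped.

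Tested genes had a mean FPKM of 1 or more, and the test was that of edgeR 4.0.16 in R 4.3.3 (quasi-likelihood, TMM scaling, 1 mean per group, all 9 libraries), two-sided. Because the mean ran over all 9 libraries, a gene high in 1 group could pass the filter through that group alone. Genes were called by the study's thresholds, more than 1.3-fold and an unadjusted p under 0.05. Alternatives used limma 3.58.1 on log2(FPKM + 1) and log2(FPKM + 0.1), DESeq2 1.42.0, other filters and scalings, a replicate block, the 6 libraries alone and the omission of each library. The standard error is the absolute log2 fold change divided by the square root of the F statistic. P-values of edgeR rest on the spread between these libraries, which the fit shares across genes (prior degrees of freedom 20.4). A small p therefore does not measure the spread of 1 gene alone, least of all for genes seen in a single library.

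Genes named were those past an adjusted p of 0.05, the 10 largest rises and falls described in the text, up to 4 genes with the smallest p of each of 32 lists, and Igf2r. A gene of the DNA damage response list is not reported here. Other names, among them the list members with the most fragments, were chosen after their values were seen. The members and lists were chosen with earlier results of these data known. Exon partners of at least 100 bases on the opposite strand were taken from GENCODE vM21. They were found for 133 called genes (46.8%) and 1870 tested genes (43.4%), and reads of such pairs may not be told apart. The text does not name every partner. Dimt1, Tsr1, Acadvl, Hmox2, Orc4, Ccnd3 and Cox4i1 are among the called genes that also have one. Promoter sequences came from RefSeq, which matched 5 of the 6 genes past the adjusted threshold.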

Additional observations from a re-analysis of the deposited data

Results flagged for a closer look

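Of the genes under the expression filter, 4 passed an adjusted p of 0.05 in edgeR when all 12128 genes with a fragment were tested. They had been left out of the comparison because their mean FPKM was under 1. Elmo1, an engulfment and cell motility factor, had 6, 16 and 8 fragments in ICSI-AOA, none in dICSI-AOA and 2, 0 and 1 in ICSI. It was 10.3-fold lower in dICSI-AOA against a floor of 3 fragments per group, a ratio that leaves counting error out. Its fitted log2 fold change of −6.32 depends on the prior count. Abca8b, a lipid transporter of the ABC family, had 7, 13 and 12 fragments in ICSI-AOA, 0, 0 and 1 in dICSI-AOA and 0, 1 and 1 in ICSI. The scaled ratio of its group totals was 32.8 with an exact 95% counting interval of 5.48 to 1337, and the fitted log2 fold change was −4.58. For both genes every ICSI-AOA library was above all other libraries. Elmo1 overlaps Gm32036 and Abca8b overlaps Gm11697 on the opposite strand.

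The other 2 genes rested on a single library. Suv39h2, a methyltransferase for lysine 9 of histone H3, had 21 fragments in dICSI-AOA replicate 4 and 0 in the other 8 libraries, with a fitted log2 fold change of 5.83. Sltm, a nuclear RNA-binding protein, had 19 fragments in ICSI-AOA replicate 4 and 0 in the other 8, with −5.67. Of 5631 genes with 10 or more fragments over the 9 libraries, 4 had 10 or more in 1 library and 0 in the rest, and the other two were Mrpl49 and Ube2n.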

How the results depend on the processing

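Direction seldom changed for the named genes, most of which were chosen for a small p or a large change in these same libraries. The alternatives reuse these libraries, so a kept direction is no separate support. Of 1389 values of 69 named genes under 21 alternatives, 1198 kept their direction and their side of the thresholds, 188 lost their call, 1 gained it and 2 changed sign, Tsr1 to −0.24 without dICSI-AOA replicate 1 and Orc4 to 0.36 without ICSI-AOA replicate 4. When a library was left out Tsr1 ranged from −0.24 to 1.32 and Orc4 from −3.20 to 0.36 on the log2 scale. Of 60 named genes that were called, 23 stayed called under every alternative that tested them. The 284 called genes became 503 with no filter, 134 with a mean FPKM of at least 5, 141 with a mean of at least 10 fragments and 121 with DESeq2, and 217 to 346 when a library was left out. The 6 genes past the adjusted threshold became 0 with limma at either pseudocount, 19 with no filter, 3 with a mean of at least 10 fragments, and 0 to 12 when a library was left out. With a replicate block 291 genes were called and 19 passed the adjusted threshold. Same-numbered libraries of the AOA groups correlated at 0.05, −0.02 and 0.06 in their deviations from the group means. Libraries with unlike numbers correlated at −0.08 to 0.02. With a median standard error of 0.51, correlations this near 0 cannot decide whether the numbers pair the libraries. The share of called genes that were higher in dICSI-AOA, 54.9%, became 71.4% with the authors' factors, which moved the median of all genes to 0.09, and 65.7% and 67.3% with limma. It became 48.3% with no filter, 48.5% with a mean FPKM of at least 5 and 49.8% with total fragments without mitochondrial genes. The cause of these changes was not tested. Depth was the limit for low genes, with a median standard error of 1.12 on the log2 scale under 20 fragments over the 6 libraries and 0.62 from 20 to 60.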

Other observations

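Beyond the lists, called genes were spread over the chromosomes. The share called ranged from 3.58% of 279 genes on chromosome 5 to 9.16% of 131 genes on chromosome 14 among the autosomes, and 3 of 75 X-linked genes were called. Fragments of genes with an opposite-strand partner made up 59.6% ± 1.5 in ICSI-AOA and 61.6% ± 0.399 in dICSI-AOA (SD, n = 3 libraries), without overlap (two-sided exact permutation p = 0.1, the smallest possible).

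Extl1, a glycosyltransferase of heparan sulfate synthesis, had 0, 28 and 0 fragments in ICSI-AOA against 14, 28 and 42, with 14, 0 and 0 in ICSI, all multiples of 14. Cep85, a centrosomal protein with 279, 509 and 313 fragments in ICSI-AOA against 277, 148 and 186, was called with a log2 fold change of −0.89 (SE 0.31), while the ICSI libraries ranged from 88 to 316. Tmem189 had 70, 55 and 46 fragments against 118, 106 and 114, with 56, 67 and 65 in ICSI. Its log2 fold change was 0.94 (adjusted p = 0.0527 from edgeR), just over the adjusted threshold, and it overlaps Cebpb on the opposite strand. These 3 genes were chosen after their values were seen.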
